A study of Drosophila melanogaster with 4 samples.

Results

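Oxidative phosphorylation couples the oxidation of nutrients to the making of ATP on the inner mitochondrial membrane. Complex I and complex II pass electrons from NADH and succinate to ubiquinone, complex III passes them on to cytochrome c, complex IV reduces oxygen, and ATP synthase uses the resulting proton gradient. Most of the subunits are encoded in the nucleus, many of them as short, broadly expressed housekeeping genes, and some have a second copy elsewhere in the fly genome, of which several are known to be transcribed mainly in the testis. The promoters of 84 such nuclear genes, out of 13945 protein-coding genes, were examined for binding of the CG8924 protein. The genes were taken by symbol, as those beginning with ND- (complex I), UQCR (complex III), COX4 to COX8 (complex IV) or ATPsyn (ATP synthase), together with SdhA, SdhB, SdhC and SdhD (complex II). This gave 40 genes of complex I, 4 of complex II, 9 of complex III, 16 of complex IV and 15 of ATP synthase. Of the 84, 21 have a symbol that ends in L, in some cases with a digit after it, and are called L-named copies here. ND-MNLL is not one of them, since its name is that of a subunit. The symbol rule leaves out subunits with other kinds of name, such as levy, cype and blw, which are given separately.

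Binding was measured by chromatin immunoprecipitation with sequencing in whole Drosophila melanogaster embryos of both sexes, 0 to 24 h old. All samples came from 1 transgenic fly line that stably carries CG8924 with GFP at its C terminus, and the tagged protein was pulled down with an antibody against GFP. There was 1 group of 4 biological replicates, with no second genotype, treatment or age window, and whole embryos mix all cell types and 24 h of development. The values therefore describe where tagged CG8924 was found and carry no comparison between conditions.

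The authors deposited 30000 peaks for each replicate, 30000 for pooled replicates 2, 3 and 4, and 7842 thresholded for reproducibility, and the latter are exactly the top of the pooled list by signal. Replicate 1 entered neither of the last lists. A gene was said to have a promoter peak if the summit of a thresholded peak, its highest point, lay within 500 bp of a transcription start site (TSS) of the gene. Peaks were ranked by the authors' signal value within a list, with rank 1 the highest, because signal is on the scale of its own list. The number of sequencing reads behind the lists is unknown.

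CG8924 peaks lay at the promoters of 34 of the 84 genes, or 40.5%, against a background of 31.4% over all protein-coding genes. The peaked genes came from every complex, with 15 of 40 in complex I, 2 of 4 in complex II, 3 of 9 in complex III, 7 of 16 in complex IV and 7 of 15 in ATP synthase. Nearly all of them were genes that are not L-named, of which 33 of 63 (52.4%) had a peak, whereas 1 of 21 L-named copies (4.76%) had one. When the 7842 highest-signal peaks of each replicate were used in place of the thresholded list, 33, 33, 32 and 32 members had a promoter peak in replicates 1 to 4. The mean share was 38.7% ± 0.687 (SD, n = 4), against backgrounds of 31%, 30.5%, 31.4% and 31.2% of all protein-coding genes in the same lists. Among members that are not L-named the replicates gave 32, 33, 31 and 32 genes, or 50.8% ± 1.3 (SD, n = 4). The share over all members was above the background in the list of each replicate. The count over all members in replicate 1 was no lower than in the replicates that made the thresholded list. All 4 lists score the same 84 genes, so the SD gives the spread between lists. It does not measure how the share would vary with the choice of genes. The lead over the background depended on the part of the list. The 3921 highest-signal thresholded peaks gave 16 members (19%) against 18.7% of all protein-coding genes, so among the higher peaks the members were at the background, and all pooled peaks gave 56 (66.7%) against 49.8%. A window of 200 bp gave 30 members (35.7%) against 24%, and one of 1000 bp gave 39 (46.4%) against 35.1%. Support from all 4 replicates left 23 members (27.4%) against 22.2%, and with an overlap of 50% of both peaks 13 (15.5%) against 11.9%. Leaving out summits with a nearer TSS of another gene left 25 members (29.8%) against 23.9%, and peak intervals that cover a TSS gave 27 (32.1%) against 23.4%. Genes are not replicates and were chosen with earlier results known, so no test was made on these counts.

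**Figure D1:**
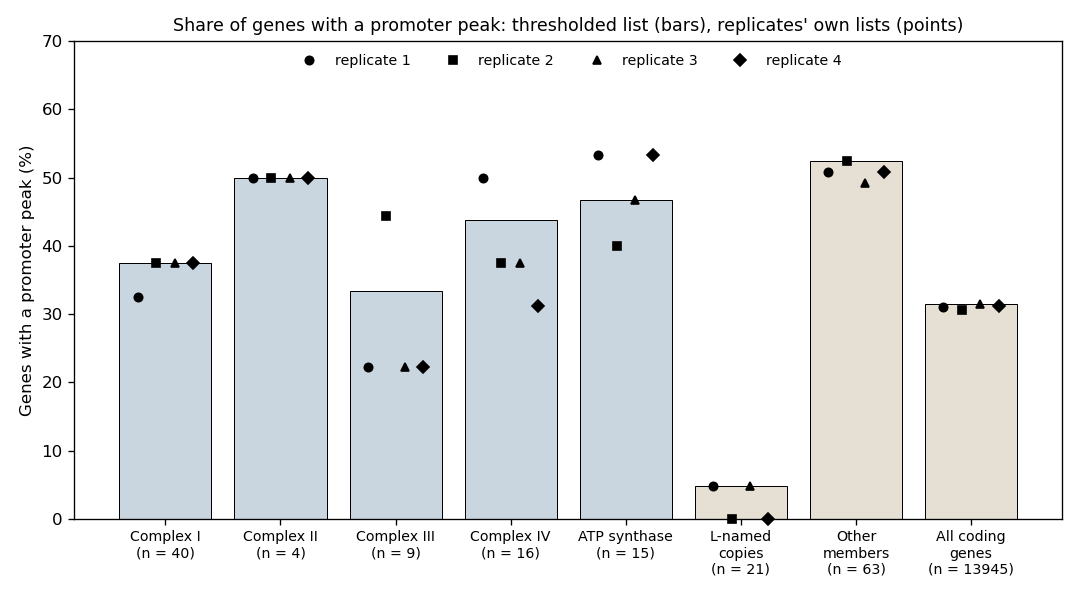
Percentage of genes with a promoter peak by complex, for the L-named copies, for the other members and for all protein-coding genes; bars show the thresholded list and points the 7842 highest-signal peaks of each of 4 replicates. The points for the other members lie near 50%, those for all coding genes near 31%, and those for the L-named copies at 0 or at 1 gene of 21.

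The sequences under the best-ranked peaks show what kind of DNA was recovered at these genes. Those of ND-ASHI, SdhC and ATPsynE are the best-ranked summits of their complexes, and a stretch free of annotated exons was at hand for each. COX7B ranked next after COX7A in complex IV, and the COX7A stretch, of 56 bases, is not shown. ND-23 has the most A+T-rich summit of all members, and COX6B the most G+C-rich. The stretch before the start of COX4, which had no summit in any list, is shown for contrast, and none is shown for complex III, whose summits lie in exons. They are written 5′ to 3′ on the strand of the named gene, from the RefSeq copy of Release 6 (dm6), and capitals mark runs of 8 or more A or T. The positions are chrX:6679307-6679457 for ND-ASHI, chr3R:15837120-15837270 for ND-23, chr3R:11210043-11210193 for SdhC, chr3L:17425264-17425414 for COX7B, chrX:19744336-19744430 for COX6B, chr3R:14326814-14326946 for ATPsynE and chr2L:19958563-19958712 for COX4. The genes ND-ASHI, ND-23, SdhC and COX6B are on the minus strand and the others on the plus strand.
ND-ASHI: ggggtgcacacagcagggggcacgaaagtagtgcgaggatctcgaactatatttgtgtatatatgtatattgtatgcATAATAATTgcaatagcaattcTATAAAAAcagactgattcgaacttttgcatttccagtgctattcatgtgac
ND-23: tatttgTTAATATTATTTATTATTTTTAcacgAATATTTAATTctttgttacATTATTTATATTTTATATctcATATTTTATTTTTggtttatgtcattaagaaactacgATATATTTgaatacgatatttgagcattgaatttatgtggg
SdhC: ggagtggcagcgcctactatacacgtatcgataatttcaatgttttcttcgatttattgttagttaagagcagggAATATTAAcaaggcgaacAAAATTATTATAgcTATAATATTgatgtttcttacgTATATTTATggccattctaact
COX7B: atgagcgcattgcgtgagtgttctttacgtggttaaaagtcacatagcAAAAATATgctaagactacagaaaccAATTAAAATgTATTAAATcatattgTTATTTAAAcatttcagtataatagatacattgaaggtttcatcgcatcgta
ATPsynE: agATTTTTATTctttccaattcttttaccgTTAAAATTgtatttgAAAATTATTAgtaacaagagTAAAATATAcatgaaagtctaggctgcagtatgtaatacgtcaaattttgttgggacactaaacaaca
COX6B: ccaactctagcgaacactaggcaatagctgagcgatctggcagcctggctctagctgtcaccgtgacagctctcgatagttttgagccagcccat
COX4: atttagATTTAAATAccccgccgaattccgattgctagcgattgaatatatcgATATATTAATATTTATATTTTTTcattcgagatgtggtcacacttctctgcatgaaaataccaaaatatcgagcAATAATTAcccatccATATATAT

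The ND-ASHI stretch runs from 339 to 189 bases before the start and holds 2 such runs, and that of ND-23 holds 5, the longest of 22 bases. The SdhC, COX7B and ATPsynE stretches hold 4 runs each. The COX6B stretch, 54.7% G+C, holds none. Neither do those of COX7A (39.3% G+C) and ND-PDSW (56.8%), which are not shown, although a run lay within 50 bp of the COX7A summit. The COX4 stretch also holds 4 runs, the longest of 23 bases, together with the letters of the 2 promoter words TATCGATA and GGTCACAC described further on, and had no CG8924 summit. Within 50 bp of the summit, 25 of 34 member peaks (73.5%) held a run, against 75% of the best promoter peaks of all protein-coding genes. The median G+C content of these windows was 31.7% over members, from 18.8% at ND-23 to 56.4% at COX6B, and 32.7% over all promoter peaks. In A+T content the summits of these genes therefore resembled the other promoter summits in the list.

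Complex I is the largest complex of the chain, with core subunits that carry the flavin, the iron-sulphur clusters and the quinone site, and accessory subunits around them. Of its 34 genes that are not L-named, 15 (44.1%) had a promoter peak. They included 5 of the 7 nuclear-encoded core subunits, namely ND-51 (human NDUFV1, which binds NADH and flavin), ND-24 (NDUFV2), ND-30 (NDUFS3), ND-23 (NDUFS8) and ND-20 (NDUFS7). ND-75 (NDUFS1) was among the core genes without one. Among accessory genes the counts differed by the human name series. Peaks lay at 7 of 10 genes of the NDUFB series, whose products belong to the membrane arm, and at 2 of 13 genes of the NDUFA series. The share over all protein-coding genes was 31.4%. The own lists of replicates 1 to 4 gave 5, 7, 6 and 7 genes of the NDUFB series and 2, 3, 3 and 3 of the NDUFA series, so the first count was the higher in every replicate. With all pooled peaks the counts were 9 of 10 and 9 of 13, against 49.8% of all protein-coding genes. With the 3921 highest-signal peaks they were 3 of 10 and 2 of 13, against 18.7%. Leaving out summits nearer to a TSS of another gene gave 7 of 10 and 1 of 13, against 23.9%. A coding gene on the other strand started within 500 bp of 6 of the 10 and 7 of the 13, and of these 5 and 2 had a peak. Over all protein-coding genes with such a neighbour the share was 58.6%. Of the 4 remaining accessory genes, ND-15 (NDUFS5) had a peak. This grouping was chosen after the values were seen.

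The strongest member peak was that of ND-ASHI (NDUFB8), at chrX:6679172-6679567, 396 bp wide, with the summit 264 bp upstream of its TSS. Its rank was 523 in the thresholded list and 767, 390, 591 and 561 in replicates 1 to 4. The summit lies 258 bp from a TSS of Fum1, the fumarase of the citric acid cycle, which starts on the other strand, and so it is a promoter peak of both genes. A second thresholded summit, at rank 5171, lay 71 bp upstream of an ND-ASHI start. ND-MWFE (NDUFA1), a small membrane-arm subunit, had the next rank, 908. The peak, chr2R:13158308-13158696, was 389 bp wide with a summit 153 bp upstream, and ranked 865, 915, 924 and 1266. That summit lay in an intron of TppII and was nearer to a TppII start, at 68 bp. The next peak belonged to ND-42 (NDUFA10) at chr3R:22027256-22027751, 496 bp wide, with ranks of 1399, 2070, 1172 and 1329 in the replicates against 1429 in the thresholded list. Its summit was 208 bp upstream of ND-42 but 21 bp from the TSS of Cchl, the cytochrome c haem lyase, so the nearer start is that of a gene for cytochrome c maturation. A second thresholded summit, at rank 6677, lay 18 bp downstream of the ND-42 start. ND-MWFE and ND-42 were the only NDUFA-series genes with a peak.

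ND-51 ranked 1727, with a peak of 353 bp at chr2L:6062675-6063027 whose summit lay 91 bp upstream, and had ranks of 1334, 2097, 1763 and 3115. ND-SGDH (NDUFB5) ranked 2387, with a peak of 165 bp at chr3L:12138507-12138671 whose summit lay 4 bp upstream, and had ranks of 1490, 4718, 3187 and 3156. Both genes stood highest in replicate 1. ND-MNLL (NDUFB1) ranked 2520, with a peak of 252 bp at chrX:7893786-7894037 whose summit lay 71 bp upstream. In replicates 1, 2 and 3 the ND-MNLL peak stood at 2495, 2492 and 2286, but in replicate 4 at 7261. The start of CG45089 lies at the same position as that of ND-MNLL. ND-15 ranked 2724, with a peak of 480 bp at chr2L:155114-155593 whose summit lay 19 bp downstream of the start, and had ranks of 4373, 2435, 2112 and 2805. ND-51, ND-SGDH, ND-MNLL and ND-15 all stood within the 7842 highest peaks of every replicate. The remaining complex I genes with a peak were ND-24 (rank 3180), ND-23 (3589), ND-30 (3825), ND-B17 (4562), ND-PDSW (5064), ND-B22 (5323), ND-20 (5622) and ND-B18 (6192), and of these ND-30, ND-PDSW, ND-20 and ND-B18 fell outside the 7842 highest peaks in at least 1 replicate. ND-30 ranged most, from 2957 in replicate 1 to 13380 in replicate 4.

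Complex II is both an enzyme of the citric acid cycle and an entry point for electrons. A peak lay at SdhC, a membrane anchor subunit, and at SdhA, the flavoprotein that oxidises succinate. The SdhC peak, chr3R:11209878-11210357, was 480 bp wide with its summit 269 bp upstream, and the TSS of the neighbour Tctp was nearer, at 129 bp. It ranked 4262, and 3809, 7700, 1816 and 6090 in the replicates. The SdhA peak, chr2R:19395914-19396044, was 131 bp wide with its summit 56 bp upstream, and ranked 5201, with 6169, 4833, 3260 and 4385 in the replicates. SdhB, the iron-sulphur subunit, and SdhD, the other anchor, had summits in the pooled list at ranks 12015 and 8972, below the threshold, and stood outside the highest 7842 in all 4 replicates. The complex was thus split the same way in each replicate.

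Complex III gave peaks at UQCR-C2, a core subunit, and at the smaller subunits UQCR-14 and UQCR-Q. That of UQCR-C2, chr3L:16584038-16584517, was 480 bp wide with its summit 5 bp downstream of the start, and ranked 5029, with 4509, 5145, 4328 and 9446 in replicates 1 to 4. That of UQCR-14, chrX:16286090-16286569, was 480 bp wide with its summit 42 bp downstream, and ranked 5222, with 7115, 4052, 5049 and 6208. UQCR-Q had the lowest of all member peaks, at rank 7447, and ranks of 11115, 5883, 11490 and 6191. None of the 3 ranked better than 5029, and UQCR-14 alone was within the highest 7842 in all 4 replicates. The own lists gave 2, 4, 2 and 2 genes, and the 4 in replicate 2 included UQCR-C1, the partner core subunit of UQCR-C2, at rank 6268. UQCR-C1 was lower in replicates 1 and 3, at 12411 and 20178, and had no summit in replicate 4.

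Complex IV, cytochrome c oxidase, had peaks at 6 of its 8 genes that are not L-named, against 31.4% of all protein-coding genes. All 6 have a coding gene starting on the other strand within 500 bp, as does COX8. Of all protein-coding genes with such a neighbour 58.6% had a peak. The replicates' own lists gave 7, 6, 5 and 5 of the 8 complex IV genes. For ATP synthase they gave 8, 6, 7 and 8 of 11, so which of the complexes had the larger share differed between replicates. When summits nearer to a TSS of another gene were left out, 2 of all 16 complex IV genes and 6 of all 15 ATP synthase genes kept a peak. Both totals include the L-named copies. The 2 were the copy COX7AL2 and COX6B, whose summit lay 24 bp from its own TSS and 24 bp from that of CG18809. COX7A ranked 1806, with a peak of 241 bp at chr3R:8340951-8341191 whose summit lay 53 bp upstream. Its ranks of 3094, 1833, 1329 and 1197 placed it among the upper peaks in every replicate, and the summit is 4 bp from the TSS of Arl2, which encodes a small GTPase. COX7B ranked 2398, with a peak of 480 bp at chr3L:17425099-17425578 whose summit lay 138 bp upstream, and had ranks of 2483, 2576, 2534 and 3315, one of the narrowest spreads. COX5A (rank 3024), COX6B (3795), COX5B (4637) and COX7C (5182) followed. Of these COX6B fell to 9718 in replicate 3 and COX5B to 8678 in replicate 4, and the others stayed within the highest 7842 throughout. The members not L-named and without a peak were COX4 and COX8. COX4, a nuclear subunit that contacts the catalytic core, had no summit in any list. COX8 had one in replicate 1, at rank 1868, and none in the other replicates or the pooled list.

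ATP synthase consists of a catalytic F1 head with a central stalk, a proton-conducting membrane part and a peripheral stalk that holds them together. Of 11 genes not L-named, 7 had a peak. The membrane part had peaks at all 4 of its genes, ATPsynC, which encodes the subunit of the rotating ring, ATPsynE, ATPsynF and ATPsynG. The peripheral stalk had them at 2 of 4, ATPsynCF6 and ATPsynO, and the F1 head and central stalk at 1 of 3, ATPsyngamma, the rotor shaft. Of all protein-coding genes 31.4% had one. In the own lists the membrane part gave 4, 4, 3 and 4 genes, the peripheral stalk 2, 1, 3 and 2, and the head and central stalk 2, 1, 1 and 2. With the 3921 highest-signal peaks the parts had 1 of 4, 0 of 4 and 1 of 3, and with all pooled peaks 4 of 4, 3 of 4 and 3 of 3. A coding gene on the other strand started within 500 bp of 3, 2 and 2 genes of the parts. Of those, 3, 1 and 1 had a peak, against 58.6% of all protein-coding genes with such a neighbour. This grouping too was chosen after the values were seen, and it leaves out blw, the alpha subunit of the head, and sun, the epsilon subunit, whose names fall outside the symbol rule.

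The best-ranked of the group was ATPsynE, at 2918, with a peak of 267 bp at chr3R:14326803-14327069 whose summit lay 58 bp upstream, and ranks of 2619, 3897, 1369 and 4398 in replicates 1 to 4. ATPsyngamma ranked 3386, with a peak of 140 bp at chr3R:29748866-29749005 and ranks of 3181, 3895, 3607 and 4695. Its summit lay 125 bp upstream of the nearest ATPsyngamma start, which is an internal one, in a non-coding exon of the gene. ATPsynC (4072), ATPsynCF6 (4595), ATPsynF (5037), ATPsynG (5592) and ATPsynO (6457) followed. ATPsynO fell outside the highest 7842 in replicates 2 and 4, with ranks of 8399 and 10335, and ATPsynF in replicate 3, at 8117. ATPsynbeta, the catalytic subunit, had a thresholded summit 553 bp upstream, just beyond the 500 bp window. Within the window its ranks were 3071, 28637, 11430 and 7192, the widest spread among members with a summit in all 4 replicates, and in replicates 1 and 4 it stood within the highest 7842.

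**Figure D2:**
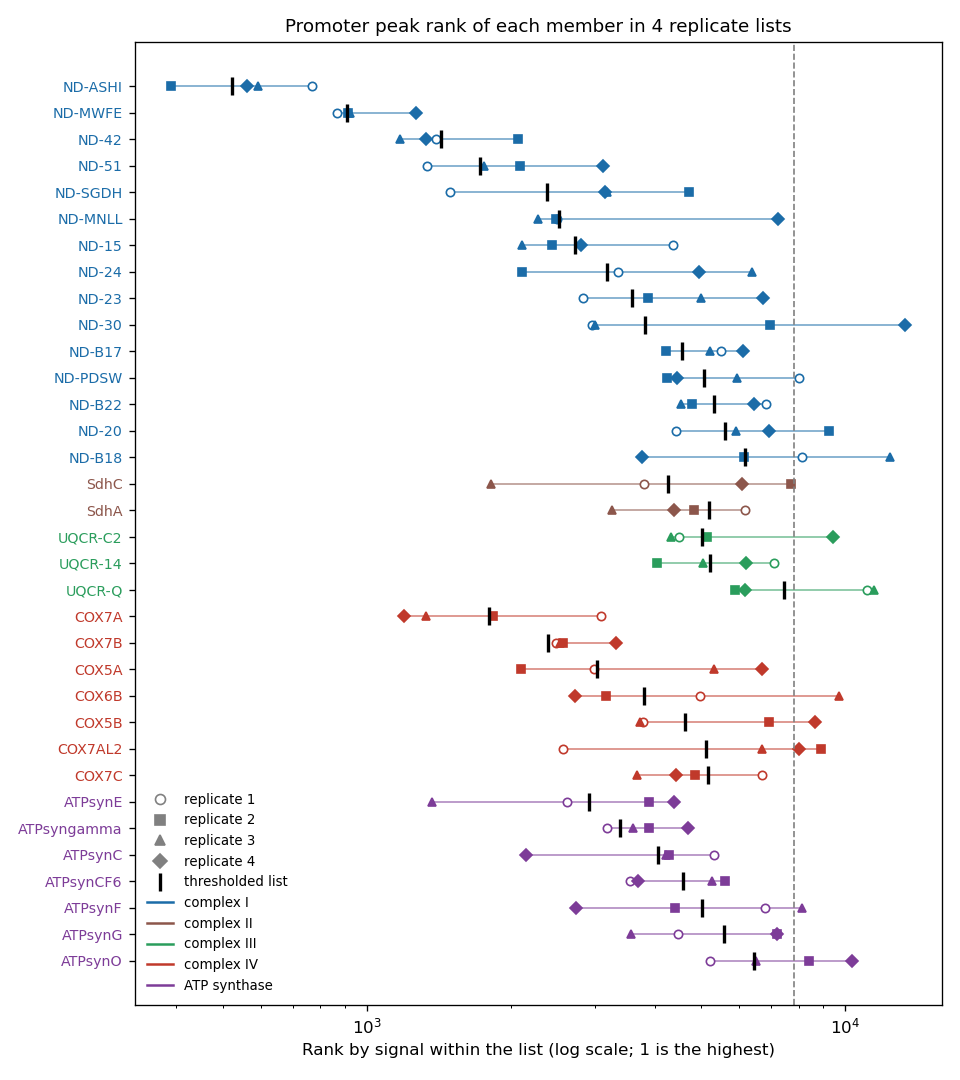
Rank by signal, on a log axis, of the promoter peak of each of the 34 members in the lists of 4 replicates (symbols) and in the thresholded list (black bar), coloured by complex; the dashed line is rank 7842 and the thin line joins the lowest and highest replicate rank. Complex I genes occupy the highest ranks, and the complex III genes lie at rank 4052 or beyond in every replicate. For 23 of the 34 members all points lie left of the dashed line, and ND-30, ND-B18, UQCR-C2 and UQCR-Q are among those that cross it.

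Agreement between replicates was close to that of other promoter peaks. Replicate 1, a library outside the pool, had one of its own 7842 highest peaks over 31 of the 34 member peaks, or 91.2%, against 88.3% of the best promoter peaks of all protein-coding genes. All 4 replicates supported 23 of the 34 (67.6%, against 70.1%), 3 supported 7 and 2 supported 4. Those 4 were ND-B18, UQCR-Q, COX7AL2 and ATPsynO. The ratio of the lowest-placed to the best-placed replicate rank of a member had a median of 2.13 and ran from 1.34 to 4.52, which is wider than the steps between neighbouring members in the ranking, so their order is not fixed by these data. Member peaks were spread over the list, 16 at rank 3921 or better and 18 beyond it, with a median rank of 4167 against 3168 for all genes with a promoter peak, and no member ranked above 523. Just inside the rank threshold were UQCR-Q and ATPsynO. Just outside it were ND-B17.2 at pooled rank 8103, with 8737, 7253, 7262 and 11268 in the replicates, UQCR-C1 at 8153 and SdhD at 8972, followed by ND-B8 at 9653 and ATPsynD at 9855. None of the 50 members without a peak was within the highest 7842 in all 4 replicates.

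Most member summits lay close to a start of the gene and on the upstream side of that start. The median distance was 78 bp, against 132 bp over all genes with a promoter peak, and 22 of 34 member summits (64.7%) were within 100 bp of the TSS, against 38.1%. Summits were upstream of the nearest start at 27 of 34 genes (79.4%, against 79.2%). The nearest start can be an internal one, and the upstream summits of ATPsyngamma, COX5A, ND-B18, ND-B22 and UQCR-Q lay inside the gene itself. The summit farthest inside the window was that of COX7AL2, 465 bp downstream, and the nearest thresholded summits beyond it belonged to ATPsynbeta at 553 bp, UQCR-6.4 at 659 bp, ATPsynD at 796 bp, ND-75 at 803 bp and ND-39 at 973 bp, all upstream. Member genes are short, with a median length of 1097 bp against 2166 bp over all protein-coding genes. The distances were not adjusted for length.

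**Figure D3:**
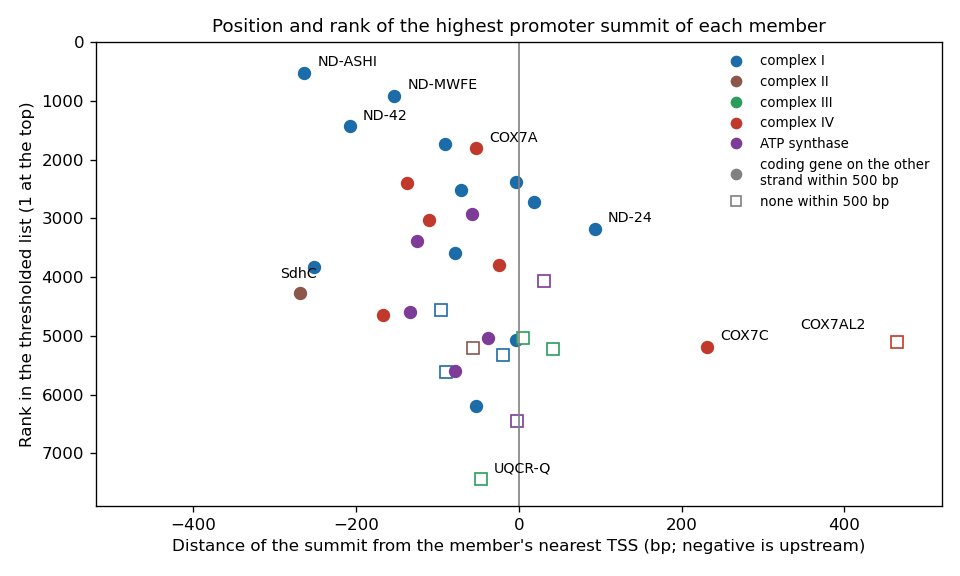
Distance in bp of the highest promoter summit from the nearest start of each of the 34 members (negative is upstream) against its rank in the thresholded list; colours mark the complex, filled circles the genes with a coding gene starting on the other strand within 500 bp, and open squares the rest. The 16 members in the upper part of the list, with ranks up to 3921, are all filled circles, and most summits lie between 0 and 150 bp upstream.

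Member promoters are often shared with a neighbour. A protein-coding gene on the other strand started within 500 bp of 40 of the 84 members (47.6%), against 27.8% of all protein-coding genes. Of these 40, 24 (60%) had a CG8924 peak, and of the 44 members without such a neighbour 10 (22.7%) had one. The same shares over all protein-coding genes were 58.6% and 21%. Within each class the members were therefore near the background, and the classes differed more than the members differed from the rest. The gap between classes was smaller when summits nearer to a TSS of another gene were left out, with 15 of 40 (37.5%) and 10 of 44 (22.7%) members, against 34.7% and 19.8% of all protein-coding genes. All 16 members ranked 3921 or better had such a neighbour, among them ND-ASHI with Fum1, ND-42 with Cchl and COX7A with Arl2, as did 8 of the 18 ranked lower. Over all protein-coding genes with a peak the shares were 56.3% in the upper ranks and 45.4% in the lower. The best-ranked summit lay within 500 bp of a TSS of another gene at 27 of 34 members (79.4%, against 58.2%), and at 11 of the 34 the start of the other gene was the nearer. Of these 11 genes, ND-ASHI and ND-42 each had a second thresholded summit nearer to its own start. A peak between such a pair cannot be given to either gene from position alone. This comparison was added after the values were seen.

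Among members that are not L-named, 24 of 37 with an opposite-strand neighbour (64.9%) and 9 of 26 without (34.6%) had a peak, against the same 58.6% and 21% over all protein-coding genes. The number of annotated start sites moved with the count as well, and a gene with more starts has more windows in which a summit is counted. Of these members with 1 TSS, 12 of 31 (38.7%) had a peak against 25% of all such genes, and of those with more, 21 of 32 (65.6%) against 49.2%. Their part in the result was not tested. G+C content over the 300 bases around the start had a median of 35% in the members with a peak and 32% in those without, among genes not L-named, and 38% over all protein-coding genes.

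The L-named copies stood apart from the genes they are named for. The 21 copies have 18 namesakes, of which 11 had a peak, and in 13 of the 21 pairs the namesake had one and the copy did not. In 1 pair, COX7A and COX7AL2, both had one, in 7 neither, and in none only the copy. The pairs with the namesake alone included ND-51, the flavoprotein gene at rank 1727, against ND-51L1 and ND-51L2, and COX7A, at rank 1806, against COX7AL. They also included ND-20, ND-24, UQCR-14, COX5B, COX7C, ATPsynCF6 and ATPsynG with their copies, and levy and cype, subunits 6A and 6C of complex IV, with COX6AL, COX6AL2 and COX6CL. The pairs where neither had a peak included those of ND-B14.5A, UQCR-11, UQCR-6.4, COX4, ATPsynbeta and sun.

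COX7AL2, the exception, had ranks of 2577, 8933, 6707 and 8015 in replicates 1 to 4, so replicates 1 and 3 counted it, and its summit lay in an exon 465 bp downstream of the start. The other copies had no summit within the 7842 highest peaks of any replicate, and 14 of the 21 had no summit within 500 bp in any of the 6 lists. The copies differ from the other members in their promoters too. They have a coding neighbour on the other strand within 500 bp in 3 of 21 cases (14.3%) against 37 of 63 (58.7%), and a single TSS in 19 of 21. None of the 3 copies with such a neighbour had a peak, against 58.6% of all genes of that kind, and 1 of the 18 without (5.56%), against 21%. Of the 19 copies with a single TSS, 0 had a peak, against 25% of all protein-coding genes with 1 TSS. RNA was not measured, so whether the copies are transcribed in these embryos cannot be read from the data.

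**Figure D4:**
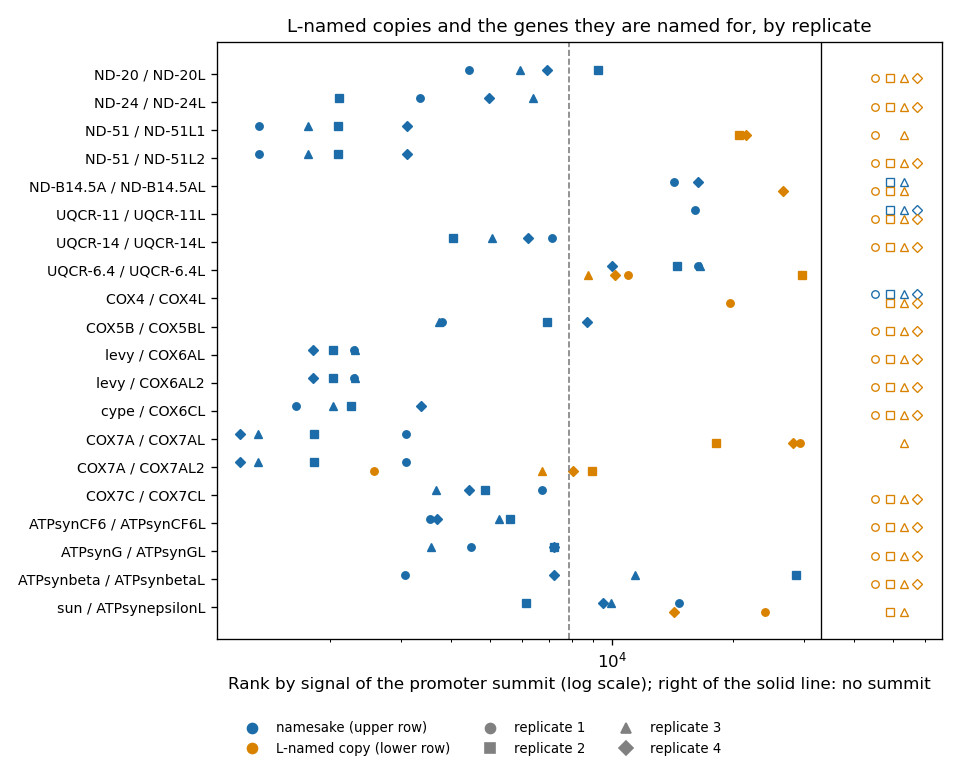
Rank by signal, on a log axis, of the promoter summit of each of 20 L-named copies (orange) and of its namesake (blue) in 4 replicate lists, with open symbols right of the solid line where a list had no summit within 500 bp; the dashed line is rank 7842. The namesakes of 13 pairs lie left of or around the dashed line while their copies lie far right or have no summit, and COX7AL2 is the only copy with points left of the line.

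Members without a summit in any of the lists numbered 19. Apart from the 14 copies they were ND-19 (NDUFA8), ND-MLRQ (NDUFA4, found with complex IV in mammals), ND-B12 (NDUFB3), COX4 and ATPsynB, the b subunit of the peripheral stalk. Of the 50 members without a thresholded peak, 22 had a summit in the pooled list below the threshold. By complex, the 50 comprised 25 genes of complex I, 2 of complex II, 6 of complex III, 9 of complex IV and 8 of ATP synthase. The count differed by chromosome arm, with peaks at 10 of 18 members on 3R, 8 of 16 on 2L, 7 of 12 on X, 5 of 19 on 3L, 4 of 17 on 2R and 0 of 2 on the small chromosome 4, where ATPsynbeta lies. Without the L-named copies, which are unevenly spread, the counts were 10 of 13 on 3R, 7 of 12 on 2L, 7 of 12 on X, 5 of 13 on 3L and 4 of 11 on 2R. Over all protein-coding genes the arms ranged from 27.5% on chromosome 4 to 32.7% on 3R.

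Known promoter words were looked for, on either strand, up to 50 bp from the 34 member summits and in the 300 bases from 250 before to 50 after the start of all 84 genes. The DNA replication-related element, TATCGATA, was found at 1 member summit, SdhC (2.94%, against 4.29% of all promoter summits), and in 10.7% of member promoters against 9.23% of all. The core of the motif 1 word bound by M1BP, GGTCACAC, was found at the summits of ND-PDSW and UQCR-C2 (5.88% against 3.4%) and in 15 member promoters, or 17.9% against 7.79%. Of these 15 promoters 6 belonged to genes with a CG8924 peak and 9 to genes without. A palindromic element described upstream of nuclear genes for mitochondrial proteins in flies, searched as TTACATAA, TTACGTAA and TTATATAA, was found at the ND-MNLL summit (2.94% against 3.35%) and in 6 promoters (7.14% against 5.09%). Of these 6, 5 belonged to genes with a peak, namely ATPsyngamma, ND-30, ND-42, ND-MNLL and ND-SGDH, where 40.5% of all members had one. All 6 genes have a coding neighbour on the other strand within 500 bp, and 60% of members with such a neighbour had a peak. Whether the element goes with CG8924 peaks was not tested. The form TTATATAA is itself a run of A and T, and GGTCACAC ends in letters that can begin CACACACA.

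No member summit held GAGAGAGA, CACACACA, the E-box CACGTG, GCGCATGC, which resembles the site of the mammalian regulator NRF-1, or CAGGTAG, the site of Zelda, against 0.411%, 1.96%, 0.844%, 0.137% and 0.319% of all promoter summits. In member promoters the same words were found in 0%, 1.19%, 4.76%, 0% and 2.38%, against 3.21%, 4.22%, 4.2%, 1.07% and 1.69%. These are matches of letters in fixed windows and are not sites shown to be bound. No word searched, other than the runs of A or T, was found at more than 2 of the 34 member summits.

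Other genes of the respiratory chain and of mitochondrial metabolism were taken from a list of 52 names, of which 47 were matched in the annotation. Of these, 17 (36.2%) had a promoter peak, against 31.4% of all protein-coding genes. Subunits and electron carriers with names outside the symbol rule had 6 of 12. The highest was Cyt-c-d, a cytochrome c known for its role in sperm development, at rank 141, with ranks of 188, 142, 170 and 105, although its summit is nearer to CG31808 (149 bp) than to Cyt-c-d (383 bp). The subunits cype (1926), levy (1989), blw (2130) and ox (7700) and the second cytochrome c, Cyt-c-p (6265), were also peaked. The levy summit was nearer to the start of wmd (64 bp) than to that of levy (152 bp). The ox summit was nearer to the start of Dgkepsilon (19 bp) than to that of ox (82 bp). The names RFeSP and Cyt-c1, of catalytic subunits of complex III, were not.

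Factors that assemble the complexes had 4 of 12, with CIA30, a complex I assembly factor, at rank 269 and at 309, 229, 411 and 243 in the replicates. Cox17 (1138), a copper chaperone, Cox10 (2335), which makes haem for complex IV, and Ttc19 (1188), which acts on complex III, were the others. All 4 ranked above the median member subunit, although the Ttc19 summit was nearer to the start of Acn (78 bp) than to that of Ttc19 (129 bp). Carriers that exchange metabolites and phosphate had 2 of 5, Mpcp2 (4092) and porin (5452), and enzymes of the citric acid cycle 3 of 8. These were Idh3g, a subunit of isocitrate dehydrogenase, at rank 148 with 211, 126, 139 and 131 in the replicates, Fum1, through the peak it shares with ND-ASHI, and kdn (6689), the citrate synthase. Regulators of nuclear or mitochondrial genes for the organelle had 2 of 10, Ets97D (2884), the fly relative of mammalian GABPA, and ewg (5491), the relative of NRF-1. The peaks of Cyt-c-d, Idh3g and CIA30 ranked above every subunit gene selected by symbol.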

How the data were processed

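CG8924-GFP binding was mapped in 4 biological replicates. The deposited lists are narrowPeak files on dm6, per the labels. A peak's signal value was computed by the authors on its own list's scale, and the deposited −log10 q-value falls to between 0.425 and 0.559 in the replicate lists, so those lists include weak peaks. The sources used here do not name a peak caller or an aligner. Replicates 2, 3 and 4 made up the pooled and the thresholded list, and 1 control file served all calls, per the accompanying deposited notes. Depth is unknown, so no counting interval is given, and depth could move a replicate's ranks.

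Genes came from Ensembl release 115 without transposable elements (18164 genes, of which 13945 are protein-coding). A summit is assigned to every gene with a TSS within 500 bp. A replicate supports a thresholded peak if one of its 7842 highest peaks overlaps it by at least 1 bp. Promoter words used the TSS of most transcripts. Sequences came from RefSeq's copy of Release 6. Python 3.11.15, NumPy 2.4.6 and matplotlib 3.10.9 were used. As a check of the code, summits were placed near the starts of 200 genes, and all 200 were recovered. The 0 wrong calls over 13945 genes were counted against a direct search by the same rule. A gene called through a summit placed at its neighbour was not counted as wrong, so the check does not cover that case.

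The members, gene lists and words were chosen with earlier results of these data known, and no tests were made. Every member with a thresholded promoter peak is named, with full values for the 10 best-ranked and the 2 best-ranked of each complex. Of the others, the 5 best-ranked in the pooled list and those with no summit in any list are named, as are all related genes with a peak, and the pairs of copies, except that 1 item is counted but not reported by name here. Further genes were named after their values were seen, namely ND-75, ND-39, UQCR-6.4, SdhB, COX8, ATPsynbeta, RFeSP, Cyt-c1, mAcon1 and PolrMT. Alternatives covered the window, the threshold, support and its overlap, the nearest start and each replicate. Added after seeing the data were the peak interval as criterion, the A+T description, the grouping by subunit type, the count without copies and opposite-strand neighbours.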

Additional observations from a re-analysis of the deposited data

Results flagged for a closer look

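Of 60 sets of 4 replicate values looked at (the counts by complex and the ranks of named genes), 8 held a replicate far from the other 3, where chance flags about 1 in 20. The count of complex I genes was 13 in replicate 1 and 15 in each of the others, and that of complex III genes was 4 in replicate 2 and 2 in the others. Where 3 counts are equal, any other value is flagged, so the rate of 1 in 20 does not hold for these 2 counts. Ranks far from the rest in replicate 4 were 7261 at ND-MNLL, 1266 at ND-MWFE, 9446 at UQCR-C2, 3315 at COX7B and 11199 at Cyt-c-p, each lower in the list than in replicates 1 to 3. In replicate 1, Idh3g stood at rank 211, against 126, 139 and 131. All but the 2 counts are of a single peak, and of these genes UQCR-C2 and Cyt-c-p were carried past rank 7842.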

How the results depend on the processing

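Counts moved with how strict the list was. With the 3921 highest-signal thresholded peaks, 16 members had a promoter peak, with 0 in complex II, 0 in complex III, 4 in complex IV, 2 in ATP synthase, 0 L-named copies, 16 other members and 0 members without an opposite-strand neighbour, and the replicates' own lists of that length gave a mean of 16. With all pooled peaks, 56 members, 28, 4 and 6 genes of complexes I, II and III, 4 copies, 52 other members and 22 without such a neighbour had one. Support from all 4 replicates left 1 gene in complex III, 4 in complex IV, 0 copies and 5 without such a neighbour, and with an overlap of 50% of both peaks 13 members, 7, 1, 1, 1 and 3 by complex, 0 copies, 13 others, and 9 with and 4 without such a neighbour. Within 200 bp complex II had 1 and the copies 0. Requiring no nearer TSS of another gene left 1 in complex II, 2 in complex IV and 15 with such a neighbour. Peak intervals over a TSS gave 1, 3 and 0 for complexes II and IV and copies, and the own lists of replicates 2 and 4 gave 0 copies. Requiring support from all replicates but 1 in turn gave 24 to 26 members, 1 to 2 for complex III, 4 to 5 for complex IV, 0 to 0 copies, and 5 to 6 without such a neighbour. The cause was not tested. No paired analysis was possible because there is 1 group.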

Other observations

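Some strong peaks of single replicates have no counterpart in the pooled list. Of the 7842 highest peaks of replicates 1 to 4, 252, 174, 121 and 146 overlapped no pooled peak. COX8 had a promoter summit at rank 1868 in replicate 1 and none in the pooled list. For COX8, mAcon1 and PolrMT only summits within 500 bp of a TSS were compared, and overlap with a pooled peak was not examined. mAcon1, the mitochondrial aconitase, had a promoter summit at ranks 1661, 2154 and 1760 in replicates 1, 2 and 4, none in replicate 3, and none in the pooled list, although 2 of those replicates were pooled. PolrMT, the mitochondrial RNA polymerase, had one in replicate 1 at rank 3596 and none in the other lists.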
